A study of Mus musculus with 10 samples.

Results

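The genes described here are 10 secreted inflammatory factors and their induced partners: the chemokines Ccl2, Ccl7, Ccl11 and Cxcl1, the cytokines Il6 and Il33, the hyaluronan-matrix proteins Ptx3 and Tnfaip6, the prostaglandin synthase Ptgs2, and Tnfaip2. They were chosen by symbol from 31053 genes, after earlier results of these data had shown them high in fibroblasts of the adult library, so that difference is a description and carries no test. All 10 symbols were found in every file. The tissue was the mouse supraspinatus tendon enthesis, the attachment of the rotator cuff tendon to the humeral head. Droplet libraries came from wild-type C57BL/6 mice at postnatal days 11, 18 and 56 (P11, P18 and P56), 1 library per age, from entheses pooled between animals, digested with Liberase, depleted of red cells and sorted for cells negative for Cd45 and DAPI. Plates of single cells in 96 wells came from Gli1CreERT;Ai14 mice given tamoxifen at P5 and P7 and taken at 7 ages (P7, P11, P14 and P18, then P21, P28 and P42), again 1 plate per age. The Ai14 reporter marks cells that expressed Gli1 when tamoxifen was given, together with their descendants, and the labels do not state clearly whether every plated cell was sorted for the red reporter. Age and library cannot be told apart in either assay, and every interval below is an exact 95% interval for counting error only. Where a count is 0, the limit given is that of 3 counts.

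Chemokines of this group recruit leukocytes: Ccl2 and Ccl7 act on monocytes through Ccr2, Ccl11 on eosinophils through Ccr3, and Cxcl1 on neutrophils through Cxcr2. Fibroblasts, pericytes and macrophages make them after tumour necrosis factor, interleukin 1 or tissue damage, in large part through NF-kB and C/EBP transcription factors. Tnfaip6 and Ptx3 bind to and stabilise hyaluronan-rich matrix, and Ptgs2 (cyclooxygenase 2) is the inducible step of prostaglandin synthesis. Enzymatic dissociation is itself known to induce immediate-early genes such as Fos and Jun, and several of the genes described here can follow them.

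All 10 genes lie on the plus strand of GRCm38. Ccl2 (chr11:82035571-82037453), Ccl7 (chr11:82045712-82047525) and Ccl11 (chr11:82057823-82062955) are neighbours in the chemokine cluster of chromosome 11. Upstream sequences from RefSeq (GRCm38.p6) were matched for 7 of the 10 genes, and none was matched for Ccl2, Ccl7 or Ccl11. The 5 below are shown because they hold a match to a motif of the factors named above, within 250 bases before the transcript start; the windows of Cxcl1, Tnfaip6 and Tnfaip2 are shorter because bases inside an annotated transcript were left out. Capitals mark matches on either strand to the AP-1 motif TGANTCA (the site of Fos and Jun dimers), the NF-kB motif or the C/EBP motif TTGNGCAA.

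Cxcl1 (chr5:90890995-90891240): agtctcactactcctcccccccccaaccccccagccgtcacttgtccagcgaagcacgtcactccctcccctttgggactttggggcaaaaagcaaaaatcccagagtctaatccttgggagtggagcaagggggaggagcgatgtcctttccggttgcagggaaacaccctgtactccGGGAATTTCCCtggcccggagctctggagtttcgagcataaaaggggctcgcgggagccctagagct
Il6 (chr5:30012864-30013113): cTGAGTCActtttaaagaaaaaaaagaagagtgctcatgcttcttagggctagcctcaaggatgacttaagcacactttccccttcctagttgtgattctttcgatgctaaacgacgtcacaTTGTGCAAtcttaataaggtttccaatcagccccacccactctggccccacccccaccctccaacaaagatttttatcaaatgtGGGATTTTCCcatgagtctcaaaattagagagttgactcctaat
Ptx3 (chr3:66219637-66219886): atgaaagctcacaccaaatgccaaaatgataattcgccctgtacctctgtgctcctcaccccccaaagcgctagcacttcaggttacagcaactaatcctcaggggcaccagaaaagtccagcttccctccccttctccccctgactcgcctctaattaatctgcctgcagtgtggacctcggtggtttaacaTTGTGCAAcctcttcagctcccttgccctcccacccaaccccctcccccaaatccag
Tnfaip6 (chr2:52037863-52038008): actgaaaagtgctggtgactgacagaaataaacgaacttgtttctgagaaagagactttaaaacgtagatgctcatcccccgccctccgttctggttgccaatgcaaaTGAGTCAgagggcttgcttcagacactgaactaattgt
Ptgs2 (chr1:150099781-150100030): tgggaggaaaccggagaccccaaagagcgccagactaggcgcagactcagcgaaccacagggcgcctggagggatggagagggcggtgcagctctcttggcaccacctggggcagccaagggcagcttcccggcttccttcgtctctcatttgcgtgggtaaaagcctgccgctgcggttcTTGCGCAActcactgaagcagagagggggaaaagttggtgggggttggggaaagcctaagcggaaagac

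Positions are counted back from the RefSeq transcript start. Cxcl1 held 2 overlapping NF-kB matches, 1 on each strand, at -71 to -62 and -70 to -61. Il6 held all 3 kinds: AP-1 at -249 to -243, C/EBP at -128 to -121 and NF-kB at -44 to -35. Ptx3 held a C/EBP match at -57 to -50 and Ptgs2 held one at -69 to -62. Tnfaip6 held an AP-1 match at -142 to -136. The windows of Il33 held none of the 3 motifs, nor did the 58 bases of Tnfaip2. Over the 32851 RefSeq promoter windows of 250 bases, 6.75% held the AP-1 motif, 3.90% the NF-kB motif and 2.61% the C/EBP motif. A match describes letters only, and the 3 motifs were chosen with the sequences already seen.

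After filtering, the droplet libraries held 2882, 5163 and 4920 cells at P11, P18 and P56, with median totals of 13433, 7160 and 6066 unique molecular identifiers (UMIs, counted transcripts) per cell. Libraries shared between 2 and 8 cell barcodes. Mesenchymal-like cells, all fibroblast, tendon, cartilage and other matrix-producing cells together, were 75.3% of cells at P11, 28.2% at P18 and 83.8% at P56. Immune-like cells were 16.9% at P11 and 66.6% at P18 despite the Cd45 sort, while 0 of 4920 cells were so classed at P56. Xist and Y-chromosome transcripts also differed between the droplet libraries. A Y-linked transcript without Xist was in 309 of 2169 mesenchymal-like cells at P11, 708 of 1455 at P18 and 2424 of 4125 at P56. Plates kept between 86 and 96 wells each, with totals over kept wells from 235722 counts at P28 to 506912 at P14.

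Connective-tissue fibroblast-like cells carried most of these transcripts in the adult library. They were named by 10 markers and made up 955, 197 and 1274 cells at P11, P18 and P56. Each marker had UMIs in the class in every library, but all 10 also had UMIs in mural-like cells at P56. The summed level there was 468 CPM, against 6430 CPM in the fibroblasts. In cluster 0, which held most of the adult class, Dpp4 and Cd248 did not reach the naming threshold. The members and the immediate-early genes were left out when cells were clustered. Even so, these cells came from other clusters at P11 and P18 (mostly clusters 2 and 15) than at P56 (cluster 0, 1264 cells), so a cluster that is nearly 1 library may be that library and not a cell type. At P56, connective-tissue fibroblast-like cells were 25.9% of all cells and held 93.3% of the Ptx3 UMIs of the library, 86.3% of Ptgs2, 82.2% of Tnfaip6, 73.8% of Ccl11, 70.7% of Tnfaip2, 68.1% of Cxcl1, 63.9% of Ccl7, 59.1% of Il6 and 49.4% of Ccl2. Il33 was the exception, with 16.5% of its UMIs in these cells. Among the mesenchymal-like classes, 9 of the 10 genes were highest in connective-tissue fibroblast-like cells at P56; clustering each library alone gave 4, and setting classes by a marker score gave 6.

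**Figure D1:**
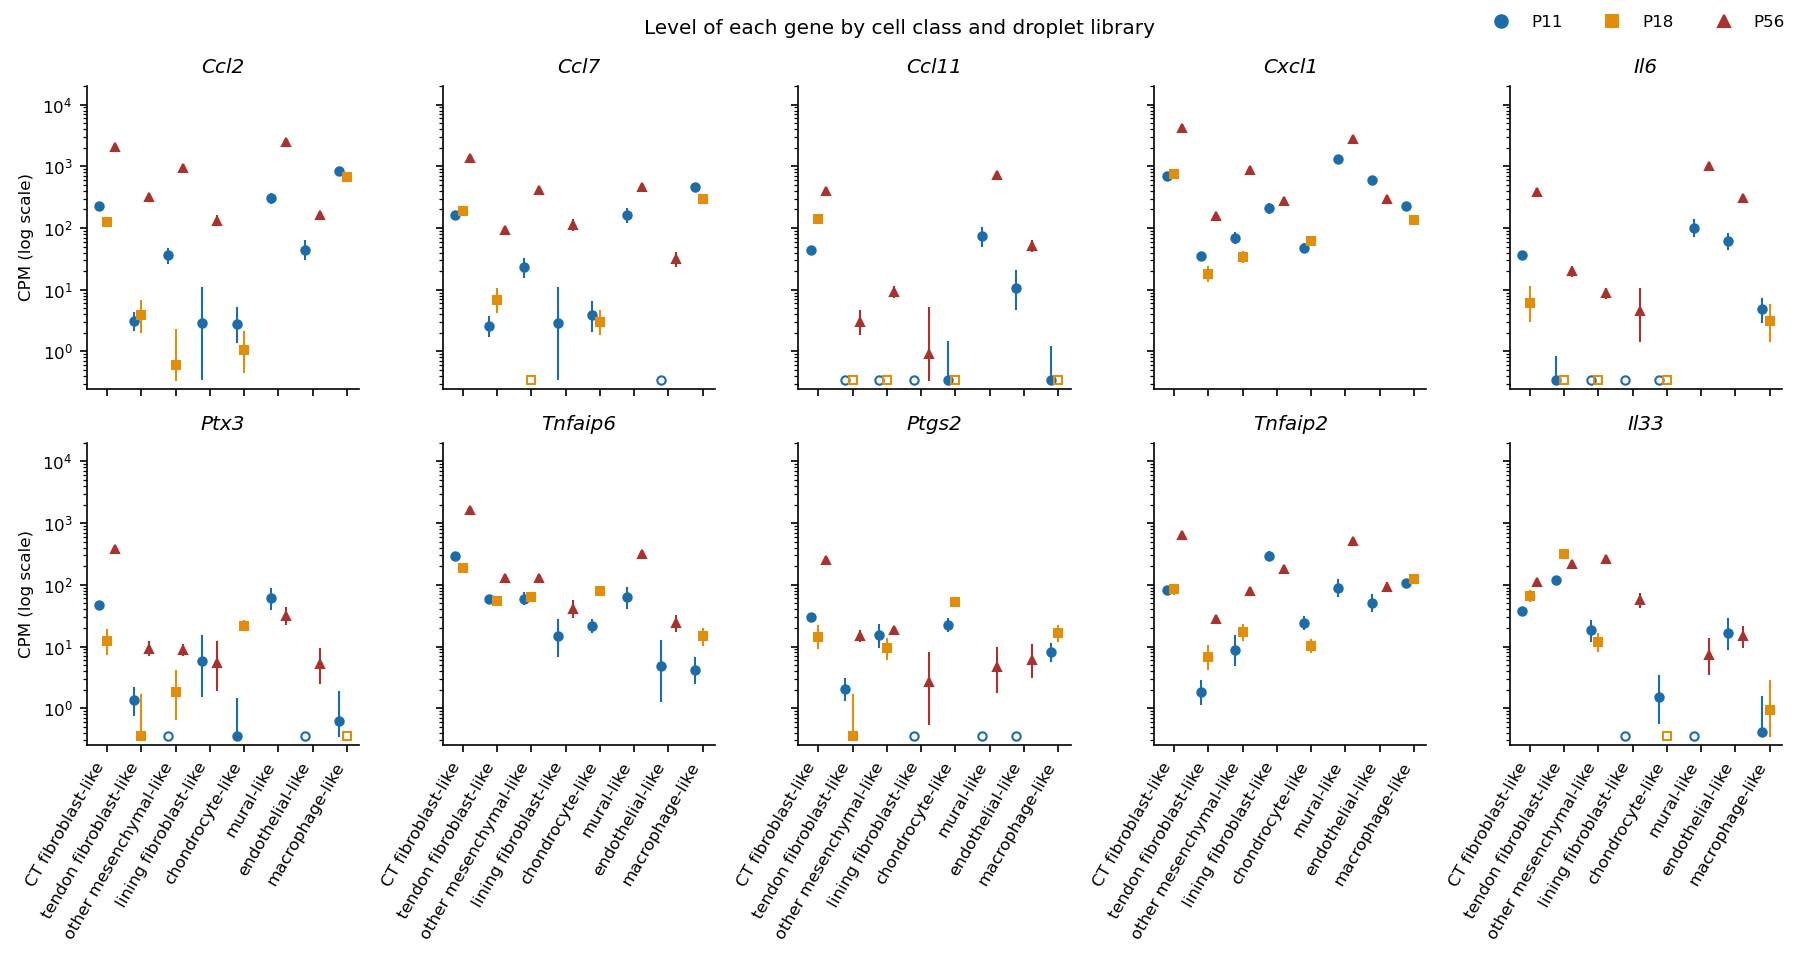
Level of each gene (CPM, the UMIs of a gene scaled to 1e6 UMIs of the class, log axis) in each cell class of the P11, P18 and P56 droplet libraries; points are sums over the cells of a class, bars are exact 95% Poisson intervals, values under the axis floor are drawn on it, and open symbols are classes with no UMI. The P56 library stands above P11 in connective-tissue fibroblast-like cells for all 10 genes, and mural-like cells at P56 stand above those fibroblasts for Ccl11, Ccl2 (2450 against 2057) and Il6 (1027 against 376).

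Levels are given as CPM, the UMIs of a gene over all UMIs of a class of cells, scaled to 1e6. Ccl2, the main monocyte chemoattractant, was at 230 CPM (222 to 239) in connective-tissue fibroblast-like cells at P11, 125 (109 to 143) at P18 and 2057 (2028 to 2086) at P56. Ccl7, which shares the receptor Ccr2, was at 162 CPM (155 to 169), 190 (170 to 211) and 1359 (1336 to 1383). The adult library stood far above both younger ones for each gene, and for Ccl2 the P18 library was the lowest. Ccl11, the eosinophil attractant eotaxin, was at 43.5 CPM (40.0 to 47.2), 137 (121 to 156) and 401 (389 to 414). Cxcl1, the neutrophil attractant, was at 688 CPM (674 to 703), 751 (712 to 792) and 4158 (4118 to 4200). Ccl7, Ccl11 and Cxcl1 were ordered from P11 to P56 with no overlap of intervals. For Ccl11 the P18 value rests on few cells: the top 20 of 197 cells held 100% of its 247 UMIs, with 50 in 1 cell. Its level at P18 was 92.7 CPM in cluster 2 and 1.52 in cluster 15, and 15 further cells came from cluster 0. Over all mesenchymal-like cells Ccl11 was lower at P18 than at P11, by a log2 difference of -0.21. The order of the younger libraries depended on the clustering: with each library clustered alone Ccl7 was at 208 CPM at P11 and 198 at P18 and Cxcl1 at 780 and 729, and at resolution 0.5 Cxcl1 was at 678 and 668. With 1000 genes and 5% mitochondrial counts as cell filter, Ccl7 was at 211 and 188 CPM.

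Il6, a cytokine that signals through Il6st, was at 37.0 CPM (33.8 to 40.4) at P11, 6.12 (3.06 to 11.0) at P18 and 376 (364 to 389) at P56 in connective-tissue fibroblast-like cells. Ptx3, a long pentraxin that binds hyaluronan-associated heavy chains, was at 47.6 CPM (44.0 to 51.5), 12.2 (7.67 to 18.5) and 387 (374 to 399). Ptgs2 was at 30.6 CPM (27.6 to 33.7), 14.5 (9.45 to 21.2) and 257 (247 to 267). These 3 genes shared one order of libraries, lowest at P18 and highest at P56. Tnfaip6, which transfers heavy chains onto hyaluronan, had the same order, at 296 CPM (287 to 305), 190 (170 to 211) and 1631 (1605 to 1656). Tnfaip2, a cytoplasmic protein induced by tumour necrosis factor, did not differ beyond counting error between P11 and P18, at 82.6 CPM (77.8 to 87.7) and 84.6 (71.7 to 99.2), and stood at 641 (625 to 657) at P56. Il33, a nuclear alarmin released from damaged cells, was at 38.1 CPM (34.8 to 41.6), 65.1 (53.8 to 78.0) and 113 (106 to 120). Adult levels also depended on which cells were counted as this class. With each library clustered alone the class held 743 cells at P56, and Ccl2 was at 740 CPM, Ccl7 at 617, Ccl11 at 793, Cxcl1 at 2540, Il6 at 234, Ptx3 at 184, Ptgs2 at 158 and Il33 at 66.9 CPM. With the marker score Il6 was at 242 CPM and Ptx3 at 248 CPM. All 10 genes stayed higher at P56 than at P11 under those settings.

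Markers of mural and myeloid cells were low in these fibroblasts. At P56 their summed level over the 9 mural markers was 95.7 CPM, over the 9 macrophage markers 20.0 CPM with Adgre1 and Fcgr1 at 0, and over the 9 neutrophil markers 1.16 CPM. The summed connective-tissue markers were at 8648, 10660 and 6430 CPM at P11, P18 and P56. At P18 the neutrophil markers summed to 184 CPM in the same class, and their part in the values of that library was not tested. B-lineage cells at P18 had Ccl2 at 0.131 CPM and Cxcl1 at 0.327 CPM, while neutrophil-like cells of cluster 18 had Ccl11 at 6.19 CPM (2.27 to 13.5). The part of free RNA in the low values of any library was not tested.

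Fibroblasts were not the only carriers, and for several genes they were not the highest. A cluster of 105 mural-like cells at P56 (cluster 27, led by Rgs5, Notch3, Kcnj8 and Abcc9, genes of pericytes) had Ccl2 at 7783 CPM (7528 to 8045), Ccl11 at 2439 (2297 to 2588) and Il6 at 1926 (1800 to 2058). Its Cxcl1 was at 7719 CPM (7464 to 7980), and its Tnfaip2 at 1273 (1171 to 1381). Each of these intervals lay above that of the connective-tissue fibroblast-like cells, while Ccl7 at 1495 CPM (1384 to 1612) began where the fibroblast interval ended. In contrast, Tnfaip6 at 751 CPM and Ptx3 at 104 CPM were lower than in fibroblasts, and Ptgs2 rested on 3 UMIs. The 9 mural markers of cluster 27 summed to 19422 CPM and the connective-tissue markers to 993 CPM. At P11 the same cluster held 35 cells and again led the list for Ccl11, at 91.2 CPM (63.5 to 127), and Cxcl1, at 1526 CPM (1405 to 1655).

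Macrophage-like cells carried the monocyte chemokines in the younger libraries. Ccl2 was at 839 CPM in macrophage-like cells at P11 and 666 at P18, and Ccl7 at 466 and 299. These cells were 13.6% of the P11 library and held 54.1% of its Ccl2 UMIs and 48.9% of its Ccl7 UMIs. At P18 they held 87.6% of Ccl2 and 70.9% of Ccl7, mainly in cluster 12, where Ccl2 reached 2539 CPM (2421 to 2661) in 90 cells. No macrophage-like cells were classed at P56, so the adult values of these chemokines come from a library without that source.

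The remaining sources differed from gene to gene. Chondrocyte-like cells at P18 held 70.6% of the Ptgs2 UMIs of that library (52.2 CPM) and 84.2% of the Ptx3 UMIs (21.9 CPM), both above the connective-tissue fibroblast-like level at that age. The Ptx3 value rests on 165 UMIs, 49 of them in 1 cell, and the fibroblast value on 22 UMIs. Il6 at P18 sat almost wholly outside mesenchymal-like cells, with 91.7% of its UMIs in 1 unnamed cluster led by Ctsg, Mpo, Elane and Mcpt8, genes of granulocyte precursors, at 39.3 CPM. Endothelial-like cells had Il6 at 302 CPM at P56 and Cxcl1 at 592 CPM at P11. Neutrophil-like cells held 46.9% of the Tnfaip2 UMIs at P18, and the 33 lining-like fibroblasts at P11 had Tnfaip2 at 293 CPM, above the connective-tissue fibroblast-like value. Il33 followed tendon fibroblast-like cells at P11 and P18, at 118 and 320 CPM. At P56 that class was at 219 CPM but was split, with log2(CPM + 1) of 8.37 in cluster 1 and 4.06 in cluster 16. Il33 was highest at P56 in cluster 4, an S100g-positive mesenchymal-like cluster, at 449 CPM. The 1480 other mesenchymal-like cells of that library, cluster 4 among them, held 3671 Il33 UMIs, against 1659 in the 1293 tendon fibroblast-like cells.

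Across all mesenchymal-like cells the adult library stood above P11 for every gene of the group. Taking a difference of at least 4-fold as the mark, 8 of the 10 genes were higher at P56 and 0 were lower. The same mark was passed upward by 2% of the 12078 genes with enough UMIs and downward by 3.27%; these genes were chosen on this contrast, so nothing is read from the comparison. The median log2 difference was 2.51 over the 10 genes and 0.05 over all genes. Nearest above the mark were Ptgs2 (log2 difference 2.39, 2.25 to 2.52) and Cxcl1 (2.43, 2.39 to 2.46), and just below it lay Tnfaip6 (1.93, 1.88 to 1.97) and Il33 (1.67, 1.60 to 1.74). Ccl2 was at 97.4, 15.5 and 1097 CPM over all mesenchymal-like cells at the 3 ages, a log2 difference of 3.49 (3.44 to 3.55), which ranked 56 of 12078 genes. Ccl7 followed at rank 76 with a log2 difference of 3.14, Il6 at rank 85 with 2.99, and Ccl11 at rank 96 with 2.80. Ptx3 ranked 116 (2.59) and Tnfaip2 ranked 140 (2.43).

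**Figure D2:**
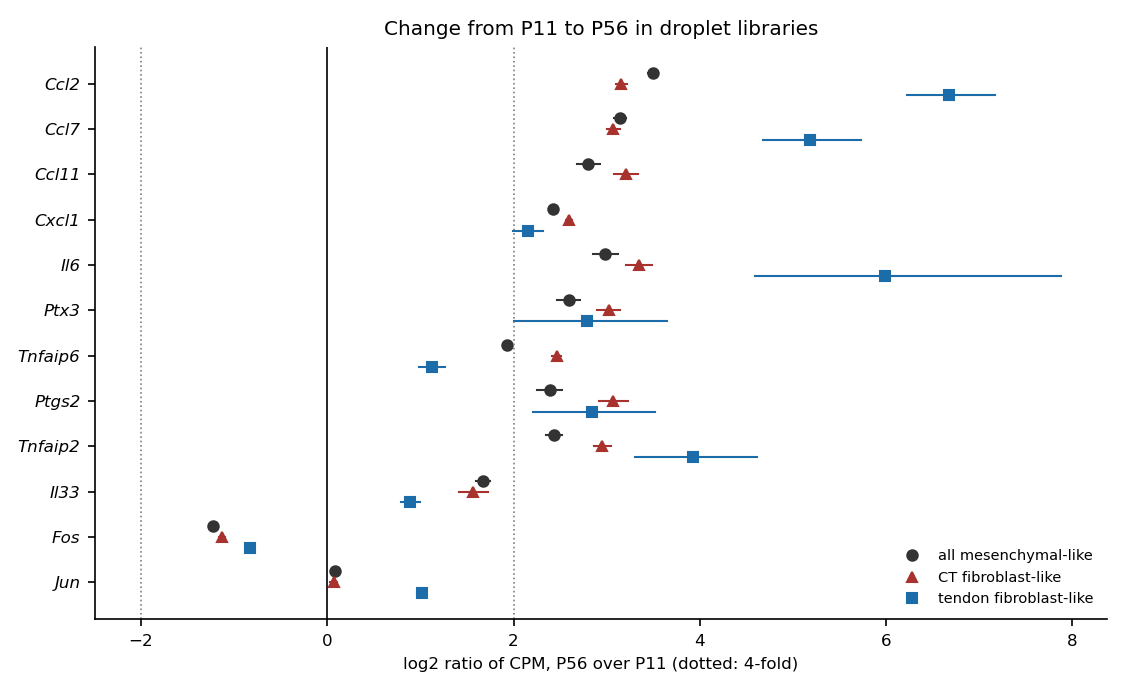
Log2 difference in level between the P56 and P11 droplet libraries for each gene, with exact 95% counting intervals, in all mesenchymal-like cells and within connective-tissue and tendon fibroblast-like cells. All 10 genes lie above 0 in all mesenchymal-like cells, while Fos lies at -1.23 and Jun at 0.08; Ccl11 has no tendon value because it had no UMI there at P11.

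The difference had the same direction within single cell classes. These genes were chosen as high in fibroblasts of the adult library, so nothing is read from the counts that follow. Within connective-tissue fibroblast-like cells 9 of the 10 genes passed the 4-fold mark, against 1.49% of genes tested there. The class may not hold the same cells at both ages. Cluster 3 (731 cells at P56) matched its markers best but was put with other mesenchymal-like cells, since another class led its top genes. Cluster 3 had Cxcl1 at 970 CPM against 4197 in cluster 0 and Ccl2 at 1054 against 2070. Il33 went the other way, at 161 against 113.5 CPM. Within tendon fibroblast-like cells, 6 of the 8 genes with enough UMIs passed the 4-fold mark, against 4.23%. Ccl11 and Ptx3 had too few. Adult cells of this class came mainly from clusters 1 (884 cells) and 16 (379 cells), which held 0 cells at P11 and P18. Ccl2 in tendon fibroblast-like cells was at 3.07 CPM at P11 and 315 CPM at P56, and Ccl7 at 2.60 and 94.5 CPM. Cxcl1 was at 35.6 and 159 CPM and Il33 at 118 and 219 CPM. The interval of the Cxcl1 difference reached just under the mark, and Il6 there rests on 4 UMIs at P11. Cxcl1 and Tnfaip2 at P56 were lower in tendon fibroblast-like cells than in any other class, and no class of that library was known to lack these genes, so the level that free RNA leaves could not be set. Among cells with a Y-linked transcript and no Xist, a split added after the data were seen, 6 of the 10 genes passed the mark and 0 fell, with Ccl11 and Ptgs2 (log2 difference 1.93) just under it.

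Other genes of the same pathways were counted in the same way. Over all mesenchymal-like cells, 2% of all genes passed the mark upward and 3.27% downward, and each count below stands beside those shares. Of 21 NF-kB pathway genes, 0 passed the 4-fold mark in either direction in mesenchymal-like cells, and their median log2 difference was 0.95 against 0.05 over all genes. Cebpd, a C/EBP factor, had a log2 difference of 1.85, Cebpb 1.41, and the NF-kB inhibitor Nfkbia 1.27. Within connective-tissue fibroblast-like cells 3 of the 21 passed it upward, as did 2 of 8 other chemokine ligands and 2 of 12 interleukin signalling genes, beside 1.49% of all genes. Among 10 other chemokine ligands tested, 2 were higher and 1 lower. These were Ccl19 (log2 difference 2.31), Cxcl5 (2.98) and Ccl5, which had 30 UMIs at P11 and 1 at P56; they are named after their values were seen. Cxcl14, a constitutive chemokine and the most abundant of that list, was lower at P56 over all mesenchymal-like cells, at 282 CPM at P11 and 182 at P56, and higher within connective-tissue fibroblast-like cells, at 90.1 and 321 CPM. Cxcl12, the ligand of Cxcr4, was at 80.3 and 67.6 CPM. Cxcl2, a neutrophil attractant beside Cxcl1, was at 68.0 and 79.9 CPM. Of 5 chemokine receptors tested, 0 passed the mark; the scavenging receptor Ackr3 was at 165 and 520 CPM.

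In the prostaglandin pathway, 1 of 10 enzymes and carriers passed the 4-fold mark upward and 0 downward. All counts here stand beside 2% of all genes upward and 3.27% downward. That gene was Hpgd, which inactivates prostaglandins, at 3.59 CPM at P11 and 20.2 CPM at P56. Ptgis, the prostacyclin synthase, was at 567 and 492 CPM, and Ptgs1, the constitutive cyclooxygenase, at 39.8 and 49.6 CPM. Neither shared the difference seen for Ptgs2, at 16.8 and 87.9 CPM in the same cells. Of 7 prostaglandin receptors tested, 0 passed it. Among 14 genes of interleukin 6 and interleukin 33 signalling, 1 was higher, the receptor chain Il6ra at a log2 difference of 2.33. Socs3, a feedback inhibitor of Il6 signalling, was at 307 and 624 CPM, and the shared receptor chain Il6st at 95.6 and 147 CPM. Of 9 hyaluronan-matrix genes, 1 was higher and 1 lower: the hyaluronan synthase Has1 was at 93.5 CPM at P11 and 653 at P56, and Cemip, which takes part in hyaluronan degradation, at 10.0 and 0.814 CPM. Hpgd, Il6ra and Cemip are named after their values were seen. Vcan, the hyaluronan-binding proteoglycan versican, was at 475 and 450 CPM.

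The transcripts were held by a minority of cells for most genes. Within the 1274 connective-tissue fibroblast-like cells at P56, the top 10% of cells held 94.8% of Ptx3 UMIs, 87.7% of Ccl2, 78.6% of Ccl11, 78.3% of Il6, 77.3% of Ccl7 and 76.2% of Ptgs2. Cxcl1 was the most widely spread, with 48.0% of its UMIs in the top 10% of cells and a median of 10 UMIs per cell. Tnfaip2 and Tnfaip6 lay near it, at 51.7% and 56.8%. To compare shares between libraries, each cell was thinned to 2000 UMIs. Cxcl1 was then seen in 35.7% of connective-tissue fibroblast-like cells at P11, 26.7% at P18 and 72.2% at P56. Tnfaip6 was seen in 27.1%, 24.6% and 57.9%, and Tnfaip2 in 11.7%, 11.8% and 48.5%. The remaining genes were seen in at most 12.3% of these cells at P11 (Ccl7) and in 13.0% (Ptx3) to 29.1% (Ccl7) at P56. Without thinning, Cxcl1 was seen in 55.9%, 42.1% and 82.3% of these cells. B-lineage cells at P18 had Cxcl1 in 0.162% at 2000 UMIs (3 of 1857 cells), with a median of 4482 UMIs before thinning against 8451 in the fibroblasts.

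The genes also met in the same cells. At equal depth, at least 3 of the 10 were seen in 14.6% of connective-tissue fibroblast-like cells of the P11 library, 10.8% of those at P18 and 63.3% of those at P56. In tendon fibroblast-like cells the share was 0 of 807 at P11, which allows up to 0.372% of cells with such UMIs, 0 of 329 at P18, which allows up to 0.912%, and 7.15% at P56. It was 40.6% in mural-like cells at P56. In connective-tissue fibroblast-like cells, pairs of genes were seen together more often than the product of their shares in 24 of 25 pairs with enough cells at P11 and in 35 of 45 at P56. The median excess was 1.74-fold at P11 and 1.20-fold at P56. All 10 pairs below the product at P56 held Ccl11 or Il33: Ccl11 was seen with Ptx3 at 0.49 of the product, with Ccl2 at 0.70 and with Ccl7 at 0.72. These are descriptions over cells of single libraries and carry no test. No share over all pairs of genes was taken, and the class pools clusters (2 and 15 at P11). The counts therefore cannot show whether meeting in the same cells is particular to these genes.

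Of Fos and Jun, the genes used here as a sign of dissociation stress, Fos had another order of libraries than the group. Over all mesenchymal-like cells Fos was at 3057 CPM at P11, 4022 at P18 and 1305 at P56, so the library with the highest inflammatory transcripts had the lowest Fos. Jun was at 916, 460 and 969 CPM, lowest at P18 as Ccl2, Cxcl1 and most of the group were, with P11 and P56 near each other. Of the 24 immediate-early and stress genes, 0 passed the 4-fold mark between P11 and P56 in either direction. Of all genes, 2% passed it upward and 3.27% downward. The median log2 difference of the 24 genes was 0.14. Among the most abundant genes of that list Klf4 was at 545 and 1833 CPM, Jund at 1394 and 2376 CPM and Junb at 1113 and 1737 CPM. The immediate-early and stress list differed in both directions, from a log2 difference of -1.66 for Btg2 to 1.90 for Hspb1, which are named after their values were seen. The median mitochondrial share of mesenchymal-like cells was highest at P11, at 5.38%, against 2.76% at P18 and 3.78% at P56, and its part in the differences was not tested.

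Within a library, cells with a UMI of both Fos and Jun at 2000 UMIs were set against cells with neither. A gene with 0 UMIs in the negative cells was given the lower bound that 3 such cells would allow. At P11, 4 of the 10 genes were seen at least 2-fold more often in the Fos and Jun positive mesenchymal-like cells, against 6.17% of all genes. Cxcl1 was seen in 24.4% (21.9 to 27) of positive and 11.9% (8.28 to 16.4) of negative cells. Tnfaip6 was seen in 22.6% and 10.8%, Ccl11 in 1.59% and 0.743% (a ratio of 2.14, 0.51 to 19.0, on 2 negative cells) and Il6 in 2.48% and 0 of 269, at least 2.22-fold. Only Cxcl1 and Tnfaip6 of these 4 rest on more than 20 negative cells with a UMI. At P18, 3 of the 6 genes frequent enough to compare passed (Ccl7, Cxcl1 and Tnfaip6), against 8.74% of genes. Ccl7 at that age rests on 1 negative cell, with a ratio of 6.81 (interval 1.06 to 286).

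At P56, 0 of the 10 genes were 2-fold more frequent in Fos and Jun positive cells, against 1.19% of genes. Cxcl1 was seen in 43.5% (40.9 to 46.1) of positive and 31.6% (29.1 to 34.2) of negative cells, a ratio of 1.37. Ccl2 was seen in 16.7% and 16.9%, Ccl7 in 15.7% and 15.5%, and Tnfaip6 in 29.0% and 28.2%. The median ratio over the 10 genes was 1.00 at P56 and 1.56 at P11, beside 0.98 and 0.95 over all genes. Ratios lay above 1 for 8 of 10 genes at P11 (43.5% of all genes), 4 of 6 at P18 (45.7%) and 5 of 10 at P56 (46.3%). The difference of these ratios between libraries was not tested.

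Cell class moves with Fos and Jun, so the same ratios were taken within connective-tissue fibroblast-like cells. At P11 Cxcl1 was seen in 42.6% of Fos and Jun positive and 18.3% of negative cells, a ratio of 2.33 (1.55 to 3.64), and Tnfaip6 in 32.7% and 16.2%. In all, 4 of 10 genes passed 2-fold at P11 (9.21% of genes) and 3 of 10 at P18 (7.4%). The P18 count rests on 33 negative cells, and its intervals are wide. Cxcl1 had a ratio there of 4.76 (1.52 to 24.02), Tnfaip6 of 5.78 (1.48 to 49.7) and Tnfaip2 of 3.40 (0.48 to 148). The interval of Tnfaip2 thus reached below 1. Ratios lay above 1 for 9 of 10 genes at P11, against 44.9% of all genes, and for 5 of 10 at P18, against 30.2%. At P18 a gene with 0 UMIs in the 33 negative cells was given the bound of 3 such cells. A sparse gene could then lie under 1 by that bound alone, so nothing is read from the P18 shares above 1. At P56, 0 of 10 passed 2-fold (8.11%), and 2 of 10 ratios lay above 1, against 57.1% of all genes. Ptx3 had the lowest ratio, 0.40 (0.26 to 0.60), seen in 8.12% of positive and 20.5% of negative cells. Ccl7 was seen in 23.3% and 36.0%, Il6 in 18.6% and 27.8%, and Tnfaip2 in 40.4% and 54.4%. Cxcl1, at 73.9% and 70.2%, was one of the 2 above 1. Within tendon fibroblast-like cells 2 of 4 genes frequent enough to compare passed 2-fold at P11 (8.85% of genes), 0 of 4 at P18 (11.2%) and 0 of 8 at P56 (5.83%).

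The counts depended on how cells were set apart and on depth. With Jun alone 6 genes passed at P11 (2.76% of all genes), with Fos alone 1 (4.08%), and with the summed immediate-early list above its median 9 (3.74%). At P56 the same 3 definitions gave 0 (0.561%), 0 (0.507%) and 1 (0.541%). The median ratio over the group at P11 was 2.11 with Jun alone, 0.92 with Fos alone and 2.48 with the list. At P56 the group median was 1.15, 0.88 and 1.40, beside 0.98, 1.00 and 0.94 over all genes. The gene past 2-fold at P56 with the list was Ptgs2, at 2.69 (2.10 to 3.48). Ratios above 1 at P56 numbered 8 of 10 with the list. With Fos and Jun both, they numbered 2 at 1000 UMIs, 8 at 4000 UMIs and 10 without thinning. The median ratio over all genes was 0.98, 0.99 and 1.43 at those depths. The share of all genes above 1 was not taken there.

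**Figure D3:**
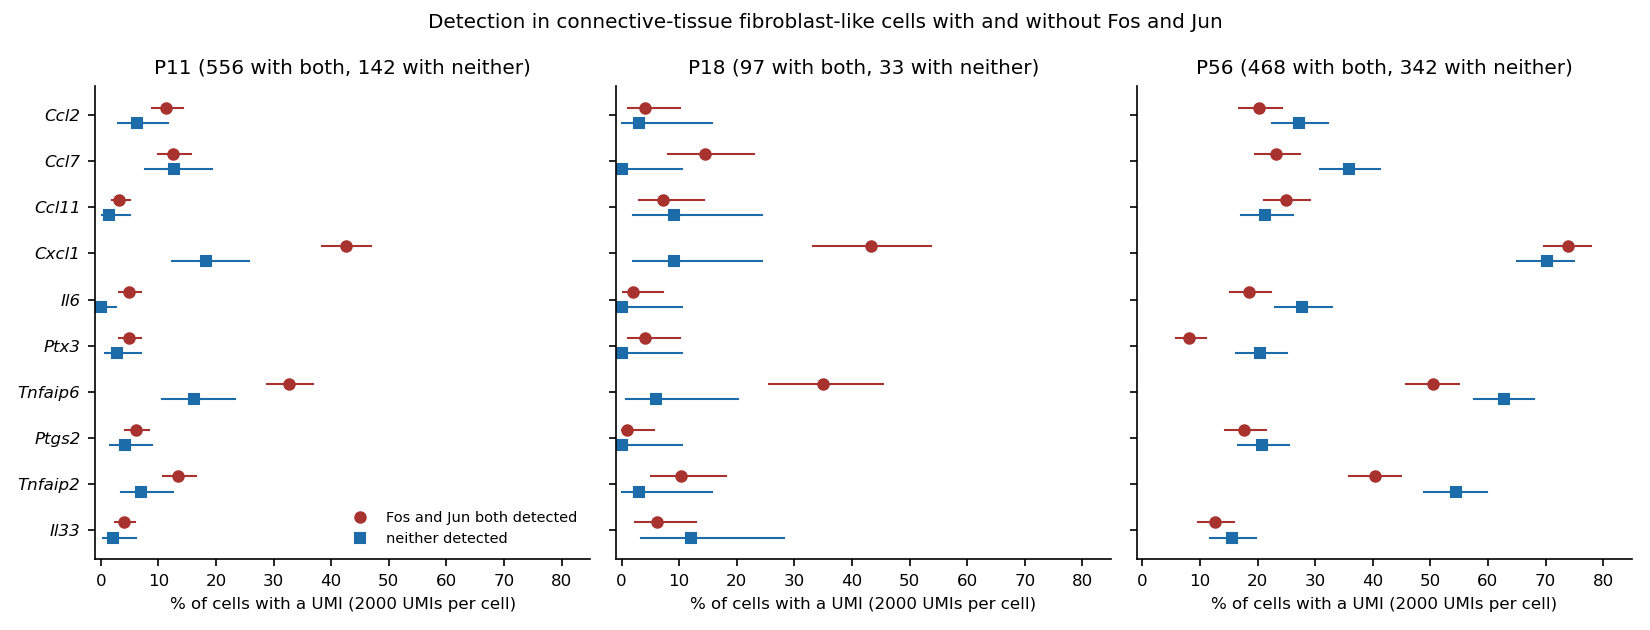
Percent of connective-tissue fibroblast-like cells with a UMI of each gene at 2000 UMIs per cell, in cells with both Fos and Jun and in cells with neither, for the droplet libraries, with exact 95% binomial intervals. At P11 Cxcl1 is at 42.6% against 18.3%; at P56 most genes lie as high or higher in the cells without Fos and Jun, with Ptx3 at 8.12% against 20.5%.

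The pattern of each gene over 19 combinations of cluster and library was compared with that of every other gene on log2(CPM + 1), as a description, since points of 1 library share its depth and animals. Ccl2 and Ccl7 were most like each other (Pearson r = 0.96), followed by Irak3, a negative regulator of Toll-like receptor signalling. Cxcl1 was most like Ccl7 (0.94). Ccl11 was most like Ms4a4d (0.97), Il6 like its own signalling chain Il6st (0.91), Tnfaip6 like Ccl11 (0.89) and then Ptges, the prostaglandin E synthase (0.88). Ptx3 was most like Bach1 (0.86), Ptgs2 like Eif4e (0.82), Tnfaip2 like Trim30a (0.93) and Il33 like S100a4 (0.94). Against Fos, r ran from -0.70 for Il33 and Ccl2 to 0.06 for Ptgs2, and against Jun from 0.12 to 0.63.

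The plates of Gli1-lineage mice gave the same genes at other ages, with fewer cells and ages up to P42. Plates are compared as sums over their wells, so a change in the mix of cells and a change in transcripts per cell cannot be told apart. Cxcl1 was at 116 CPM at P7, 1271 at P11, 258 at P14, 106 at P18, 3334 at P21, 594 at P28 and 288 at P42. The P21 plate stood above all others, with Cxcl1 counted in 85 of its 93 wells, and P11 came next. Ccl2 was at 40.0 CPM at P7, 111 at P11, 357 at P14, 87.9 at P18, 1197 at P21 and 79.2 at P42, with 0 counts at P28, which allows up to 12.7 CPM. Ccl7 was at 26.7, 339, 168, 36.2, 1088, 33.9 and 130 CPM from P7 to P42. Ccl2 and Ccl7 again were highest at P21, in 58 and 55 of 93 wells.

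Tnfaip6 was at 71.1, 656, 268, 77.6, 910, 106 and 91.8 CPM from P7 to P42, the same P21 and P11 peaks as Cxcl1. Tnfaip2 was at 20.0, 62.7, 57.2, 10.3, 468, 115 and 69.7 CPM, and only P21 stood out. Ccl11 ranged from 0 at P7 and P28 to 132 CPM at P21, Il6 from 0 at P28 to 155 CPM at P21, and Ptx3 from 0 at P7 to 103 CPM at P21. Ptgs2 and Il33 did not share that peak. Ptgs2 ranged from 2.22 CPM at P7 to 50.7 at P42 and Il33 from 17.8 at P14 to 95 at P42. At least 3 of the 10 genes were counted in 65.6% of wells at P21, 37.9% at P11 and 4.26% at P18.

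**Figure D4:**
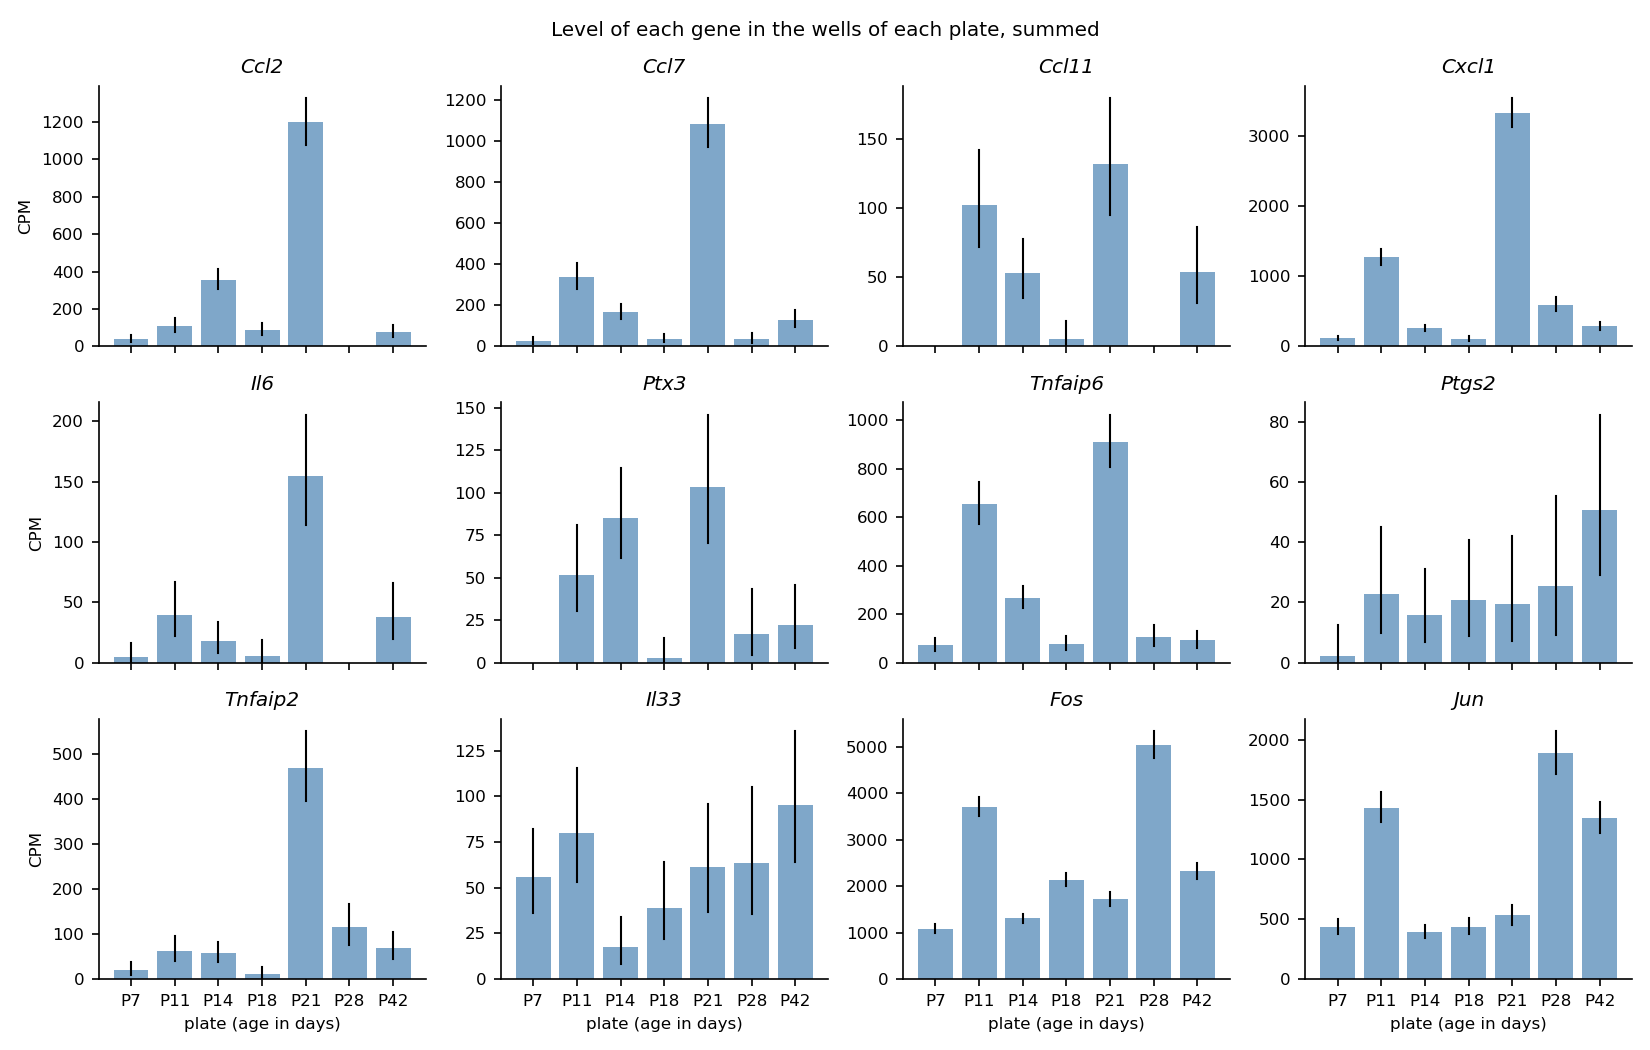
Level of each gene (CPM) on the plates of Gli1-lineage mice by age, each bar the sum over the wells of 1 plate with an exact 95% Poisson interval. P21 is the highest plate for Cxcl1 (3334), Ccl2 (1197) and 6 others, while Fos and Jun are highest at P28 (5044 and 1888). P11 is the next highest plate for Cxcl1 (1271), Fos (3709) and Jun (1431). Ccl2, Ccl11 and Il6 had 0 counts at P28, and Tnfaip2 (115) was there exceeded only by P21.

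Fos and Jun peaked on another plate than most of the group. Fos was highest at P28, at 5044 CPM, and Jun too, at 1888 CPM, on the plate where Ccl2, Ccl11 and Il6 had 0 counts. The P11 plate, next highest for Cxcl1, Ccl7 and Tnfaip6, was also next highest for Fos (3709 CPM) and Jun (1431 CPM). At P21 Fos was at 1720 CPM and Jun at 532 CPM, each at or below its median over the 7 plates, 2138 and 532 CPM. Of the P21 wells, 50 had counts of both Fos and Jun and 10 had neither; Cxcl1 was counted in 49 of the 50 and 7 of the 10, and Ccl2 in 31 and 5. Wells with at least 2 connective-tissue markers held Cxcl1 at 4423 CPM at P21, against 415 CPM in the other wells. Neutrophil markers summed to 303 CPM on that plate with 2 of 9 detected, macrophage markers to 123 CPM with 3 of 9, and muscle markers to 5463 CPM; their part in the P21 values was not tested.

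No gene of the group had a slope on log2 age along the plates that passed the test. In edgeR's quasi-likelihood fit over 4390 genes, 0 genes were called after Benjamini-Hochberg adjustment (percent called 0%; 427 genes, 9.73%, had an unadjusted p under 0.05), and 7 of the 10 had enough counts to test. DESeq2 called 109 genes (2.48%), edgeR with no filter on counts 307 (1.37%) and edgeR with at least 5 counts 20 (0.134%), in each case with 0 of the group. Tnfaip2 had the steepest slope of those tested, 1.00 ± 0.70 (SE) log2 units per doubling of age over 7 plates, with an adjusted p of 0.691 (edgeR); its slope without 1 plate ran from 0.47 to 1.76. Ccl2 had a slope of 0.58 ± 1.26 (adjusted p 0.927, edgeR) and Tnfaip6 of -0.39 ± 0.74 (0.914). Without the P7 plate or without the P21 plate the slopes of Ccl2, Ccl7 and Cxcl1 turned negative. With 1 plate per age, these p-values measure the scatter of plates around a line.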

How the data were processed

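Single-cell RNA was counted in 3 droplet libraries and 7 plates of 96 wells. The authors deposited whole-number counts per gene and cell, on mm10 per the submitters' processing notes; the matrices carry software versions 3.1.0 (P11, P18) and 3.0.2 (P56), per the file headers. The aligner, the annotation and whether plate reads were collapsed by molecular identifiers are not given in the sources used here.

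The 10 genes, the gene lists and the tests were chosen with earlier results of these data known. Cells with at least 500 genes and under 10% mitochondrial counts were kept. The automatic doublet threshold marked only 1, 1 and 3 cells, so the highest scores were removed at 0.8% per 1000 cells (70, 233 and 211 cells). Clustering (scanpy 1.11.5, Python 3.11.15, leidenalg 0.10.2) used 2000 variable genes without the 10 genes or the immediate-early list, 30 components, 15 neighbours and resolution 1. A cluster was named when at least 3 markers of 1 class stood 2-fold above the other cells. Where more of its top genes were markers of another class, the name was withheld. Such a cluster was classed as other mesenchymal-like if it expressed broad matrix markers. With 1 library per age no test was made between droplet libraries: levels carry Poisson and shares Clopper-Pearson intervals. Plate sums were fitted on log2 age with edgeR 4.0.16 (R 4.3.3); DESeq2 1.42.0 was the alternative. Genes outside the group were named by abundance, at most 4 per list, unless said otherwise. Scripts were tested on simulated data.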

Additional observations from a re-analysis of the deposited data

Results flagged for a closer look

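Ptgs2 and Il33 differed in sign between the assays from P11 to P18. In mesenchymal-like droplet cells Ptgs2 was higher at P18 by a log2 difference of 0.75, and on the plates it was lower, at -0.14 (8 counts on each plate). Il33 was higher at P18 by 0.28 in the droplets and lower on the plates, at -1.04. The difference between assays was not tested, since each assay has 1 library per age. The P11 and P18 plates also come in different deposited formats, and the 2 assays differ in mouse line.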

How the results depend on the processing

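The count of genes at least 4-fold higher at P56 stayed at 8 under each planned change of scaling, clustering and cell filter, and 0 were lower under any. The mesenchymal-like share moved at P11 to 78.2% (resolution 2) and 85.7% (1000 genes and 5% mitochondrial), at P18 to 32.3% (same filter), and at P56 to 80.7% (marker score), 80.6% (200 genes and 20% mitochondrial) and 91.3% (1000 genes and 5%). Genes highest in connective-tissue fibroblast-like cells at P56, 9, became 4 with each library clustered alone and 6 with the marker score. The P11 count of genes at least 2-fold more frequent with Fos and Jun, 4, became 8 at 4000 UMIs (7.53% of all genes), 6 without thinning (12%), 1 with Fos alone, 9 with the immediate-early list and 2 within tendon fibroblast-like cells; the P18 count, 3, became 4 without thinning (11%), 1 with Fos alone (6.34%) and 0 in tendon cells; the P56 count, 0, became 1 without thinning (11.4%) and 1 with the immediate-early list. The log2 difference of Jun turned to -0.0401 (1000 genes and 5%) and, among cells with Y-linked transcripts and no Xist (chosen after seeing the data), to -0.0932.

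On the plates, genes called of all tested numbered 109 with DESeq2, 307 with no filter on counts and 20 with at least 5 counts, with 0 of the group called in each, and 0 in each fit without 1 plate. With age in days, slopes per week turned for Ccl2 (-0.18), Ccl7 (-0.065) and Cxcl1 (-0.0613). With the file format as a term they turned for Ccl7 (-0.50), Ccl11 (-0.33), Cxcl1 (-0.73), Tnfaip2 (-0.089) and Il33 (-0.15). Without 1 plate, slopes ran from -0.83 to 1.71 for Ccl2, -0.59 to 1.28 for Ccl7, -0.55 to 0.52 for Ccl11, -0.54 to 1.27 for Cxcl1, -1.27 to 0.34 for Tnfaip6 and -0.13 to 0.38 for Il33; the cause was not tested. No paired analysis was possible because there was a single library at every age in both assays. Low plate counts limit Il6, Ptx3 and Ptgs2, which were too sparse for the fit.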
